A study of Mus musculus with 8 samples.

Results

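*Gng3*, *Meig1*, *Ap5b1* and *Fam78a* were examined in mouse spermatogonia at 3 successive stages of differentiation. The 4 genes were chosen by name, because their levels rose clearly from A1 to A3 spermatogonia in these libraries, from the 5736 genes of the expression table. The values of A3 against A1, and with them the level at A3, were therefore what picked the genes and are given as a description, without a test. All 4 were present in the table. Expression was measured by bulk RNA-seq and is given as FPKM, fragments counted for a gene, scaled by its length and by the reads of the library, so that genes of different length can be set side by side.

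Germ cells were sorted for EGFP from testes of CD1:Uchl1-eGFP mice, a transgenic line made on C57BL/6 and outcrossed to CD-1, in which the promoter of *Uchl1* drives EGFP. All groups share this transgene. All labels also carry the same synchronisation protocol: bis-(dichloroacetyl)-diamine, which blocks the synthesis of retinoic acid (RA), was given by mouth at 100 µg per g of body weight from postnatal day 1 through day 10, followed on day 11 by a single subcutaneous injection of 10 µl RA at 10 µg/µl. The groups compared were Aal (undifferentiated spermatogonia, 2 libraries), A1 (the first differentiating stage, reached a day after RA, 3 libraries) and A3 (a later differentiating stage, 3 libraries). The labels do not give the sampling day of each library or say whether the Aal animals received RA, so stage and age cannot be told apart. Each preparation pooled the testes of several animals of a litter, and the sort selects on the transgene, so a library can hold any cell that carries enough EGFP.

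Spermatogonia leave the undifferentiated pool when RA acts on them, then pass through a series of divisions as types A1 to A4, intermediate and B before they enter meiosis. The 4 genes have unrelated known roles. *Gng3* encodes a gamma subunit of heterotrimeric G proteins, which pairs with a beta subunit and relays signals from receptors at the cell surface, and it is known mainly from neurons. *Meig1* encodes a small protein that is needed later in spermatogenesis, when the spermatid builds the microtubule sleeve called the manchette and the sperm tail. *Ap5b1* encodes the large beta subunit of AP-5, an adaptor complex that sorts cargo at late endosomes. *Fam78a* encodes a protein with little assigned function.

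The stage labels were checked against marker genes. Undifferentiated markers, 13 of 21 listed genes in the table, summed to between 433 and 483 FPKM in Aal, between 124 and 180 in A1 and between 112 and 120 in A3. Differentiating markers, 9 of 13 in the table, summed to between 197 and 217 FPKM in Aal, between 520 and 585 in A1 and between 598 and 709 in A3. The sums ordered the groups as labelled, but the lowest undifferentiated sum in A1, 124 FPKM, lay close to the highest in A3, 120 FPKM. *Kit* and *Stra8* were not analysed here. Single markers did not all follow the sums. The mean was lower in A1 than in Aal for 12 of 13 undifferentiated markers and higher for 8 of 9 differentiating markers, but from A1 to A3 only 3 of the 9 were higher, *Crabp1*, *Dmrtb1* and *Sohlh2*, and 6 were lower. Of the 13 undifferentiated markers, 5 had a higher mean in A3 than in A1 and 8 a lower one. Libraries held between 18276164 and 27316451 reads, and the genes of the table took 34.0% to 34.4% of them, so every share of genes below refers to the genes of this table.

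A1-3 stood apart from the other A1 libraries in markers of somatic cells. The Sertoli cell list, 8 of 18 genes in the table, summed to 35.8 and 46.6 FPKM in Aal, to 51.8, 48.7 and 347 in A1, and to 333, 251 and 178 in A3. Sertoli cells are the somatic cells that support germ cells within the tubule. None of the 8 markers was at 0 in any library, but this holds for every gene of the table. A1-3 also held the highest macrophage sum, 10.5 FPKM against at most 1.63 elsewhere, and the highest Leydig cell sum, 8.39 FPKM.

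The promoter windows of the 4 genes are shown because the genes were picked for rising together, and the windows let their starts be compared. Each runs from 250 bases before to 50 bases after a RefSeq transcript start in GRCm38.p6, and capitals mark matches, on either strand, to the motifs searched. The first RefSeq window of each gene is given, and for *Meig1*, which has 3 windows, also the one with the highest GC content, chosen after its letters were seen. The *Gng3* window lies at chr19:8839197-8839496 on the minus strand, that of *Ap5b1* at chr19:5567774-5568073 on the plus strand and that of *Fam78a* at chr2:32084620-32084919 on the minus strand. The *Meig1* windows lie at chr2:3422599-3422898 and chr2:3419080-3419379 on the minus strand.
*Gng3*: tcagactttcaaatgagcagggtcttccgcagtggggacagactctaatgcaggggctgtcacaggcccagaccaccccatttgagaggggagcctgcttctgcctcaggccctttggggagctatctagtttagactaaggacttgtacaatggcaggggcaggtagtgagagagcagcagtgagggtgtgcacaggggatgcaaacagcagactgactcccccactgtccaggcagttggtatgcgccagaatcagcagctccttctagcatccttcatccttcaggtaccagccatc
*Meig1*, first window: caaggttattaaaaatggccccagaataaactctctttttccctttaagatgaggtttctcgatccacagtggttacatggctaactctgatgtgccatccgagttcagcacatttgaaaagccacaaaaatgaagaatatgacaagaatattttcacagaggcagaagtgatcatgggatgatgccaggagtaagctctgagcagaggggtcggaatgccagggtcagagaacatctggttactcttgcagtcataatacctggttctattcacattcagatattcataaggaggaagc
*Meig1*, window with the highest GC content: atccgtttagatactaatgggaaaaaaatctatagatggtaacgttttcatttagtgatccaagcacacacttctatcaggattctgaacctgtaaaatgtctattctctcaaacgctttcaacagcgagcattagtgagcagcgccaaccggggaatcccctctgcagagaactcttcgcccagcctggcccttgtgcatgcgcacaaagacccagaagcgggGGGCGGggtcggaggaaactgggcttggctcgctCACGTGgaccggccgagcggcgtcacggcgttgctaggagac
*Ap5b1*: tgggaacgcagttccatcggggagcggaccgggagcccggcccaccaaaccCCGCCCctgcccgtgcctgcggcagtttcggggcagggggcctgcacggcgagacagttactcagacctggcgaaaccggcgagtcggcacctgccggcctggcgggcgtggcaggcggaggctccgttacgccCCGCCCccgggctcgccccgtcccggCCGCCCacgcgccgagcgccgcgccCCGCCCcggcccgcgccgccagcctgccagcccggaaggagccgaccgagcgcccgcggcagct
*Fam78a*: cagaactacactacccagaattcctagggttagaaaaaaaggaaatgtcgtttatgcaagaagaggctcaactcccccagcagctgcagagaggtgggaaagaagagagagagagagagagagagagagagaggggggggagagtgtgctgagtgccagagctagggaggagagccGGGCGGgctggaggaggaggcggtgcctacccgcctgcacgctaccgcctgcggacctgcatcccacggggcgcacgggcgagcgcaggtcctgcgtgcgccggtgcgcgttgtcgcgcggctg

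The first windows differed widely in base composition. GC content was 78.7% for *Ap5b1*, 62.7% for *Fam78a*, 55.7% for *Gng3* and 42.3% for *Meig1*, against a median of 52.7% over 27025 RefSeq windows of the same length. The *Ap5b1* window held 44 CpG dinucleotides and that of *Fam78a* 21, whereas those of *Gng3* and *Meig1* held 2 and 3, around a median of 7. The GC box GGGCGG matched 4 times in *Ap5b1* and once in *Fam78a*, and 35.9% of all windows hold it. The retinoid half-site AGGTCA, the E-box CACGTG, the TATA box TATAAA and the DMRT core ACANTGT matched none of the 4 first windows, and 16.0%, 7.24%, 14.2% and 7.59% of all windows hold them in that order. The second *Meig1* window shown had a GC content of 53.0% and held 1 GC box and 1 E-box. *Fam78a* has 4 windows, and of the 3 not shown, that at chr2:32064115-32064414 held 1 retinoid half-site and 1 DMRT core and that at chr2:32083656-32083955 held 3 GC boxes. No motif searched was in all 4 first windows, which says only that its letters are missing from some of them.

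*Gng3* was nearly silent in Aal and reached a uniform level in A3. It measured 0.317 and 0.891 FPKM in Aal, 1.98, 1.90 and 2.93 in A1, and 12.8, 12.4 and 12.3 in A3. The groups did not overlap, and the A3 libraries lay closer together than those of any other stage. Aal averaged 0.604 ± 0.406 FPKM (SD, n = 2), A1 averaged 2.27 ± 0.574 (SD, n = 3) and A3 averaged 12.5 ± 0.274 (SD, n = 3). The Aal values rest on 13 and 38 reads and the A3 values on 413 to 528, so the counting error is widest at the start of the series. In these bulk samples a change in the RNA per cell and a change in the share of cells that express the gene cannot be told apart. Means were 3.76-fold higher in A1 than in Aal and 5.52-fold higher in A3 than in A1, and every A3 library exceeded every A1 library at least 4.20-fold. *Gng3* passed from above 17.2% of the genes of the table by mean FPKM in Aal, through 35.1% in A1, to 64.7% in A3.

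*Meig1* was the exception among the 4, since its level in A1 was below that in Aal. It measured 5.98 and 4.40 FPKM in Aal, 4.24, 2.28 and 2.56 in A1, and 9.57, 10.8 and 13.0 in A3. The highest A1 library lay just under the lower Aal library, whereas all A3 libraries stood clear of both earlier stages. Aal averaged 5.19 ± 1.12 FPKM (SD, n = 2), A1 averaged 3.03 ± 1.06 (SD, n = 3) and A3 averaged 11.1 ± 1.72 (SD, n = 3). *Meig1* has the fewest reads of the 4 in A1, with 64, 44 and 33, and the length used for its FPKM is only 706 bases. The mean in A3 was 3.67-fold that in A1 but only 2.14-fold that in Aal, the smallest net change of the 4 genes.

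*Ap5b1* rose at both steps and reached the highest level of the 4 genes. It measured 1.91 and 1.301 FPKM in Aal, 4.38, 6.87 and 4.14 in A1, and 13.4, 21.5 and 24.0 in A3. The stages did not overlap, but the spread in A3 was wide, with the highest library at 1.79 times the lowest against a median of 1.21 over all genes. Aal averaged 1.61 ± 0.434 FPKM (SD, n = 2), A1 averaged 5.13 ± 1.51 (SD, n = 3) and A3 averaged 19.6 ± 5.55 (SD, n = 3). They were 3.19-fold higher in A1 than in Aal and 3.83-fold higher in A3 than in A1, and the net change was 12.2-fold. The lowest A3 library still exceeded the highest A1 library 1.95-fold. By mean FPKM *Ap5b1* stood above 29.5% of the genes in Aal and above 74.1% in A3.

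*Fam78a* showed 2 steps of about the same size. It measured 2.81 and 2.98 FPKM in Aal, 7.06, 7.80 and 7.58 in A1, and 14.3, 19.3 and 19.4 in A3. Its replicates agreed closely in Aal and A1, and in A3 the first library lay below the other two. Aal averaged 2.89 ± 0.121 FPKM (SD, n = 2), A1 averaged 7.48 ± 0.381 (SD, n = 3) and A3 averaged 17.7 ± 2.91 (SD, n = 3). The mean was 2.59-fold higher in A1 than in Aal and 2.36-fold higher in A3 than in A1. It is the most deeply covered of the 4, with 272 to 1961 reads per library.

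**Figure D1:**
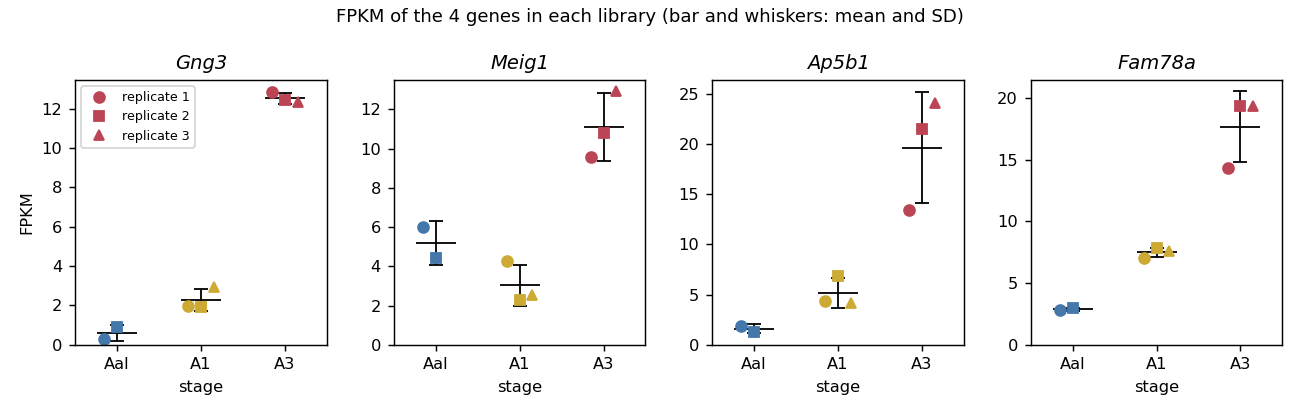
FPKM of *Gng3*, *Meig1*, *Ap5b1* and *Fam78a* (vertical axes, linear from 0) in the 2 Aal, 3 A1 and 3 A3 libraries (horizontal axes); each symbol is 1 library, and the bar and whiskers are the mean and SD. All A3 libraries of each gene lie above all of its A1 libraries, and *Meig1* alone is lower in A1 than in Aal.

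The description as late risers therefore held for *Meig1* alone in the strict sense, and 3 of the 4 genes had already risen by A1. Changes were tested with limma on log2(FPKM + 1), and fold changes on this scale understate those of genes with low FPKM. Calls required a change of more than 1 on the log2 scale in either direction together with a p of 0.01 or less after Benjamini-Hochberg adjustment. *Ap5b1* was higher in A1 than in Aal by 1.22 (SE 0.22, limma adjusted p = 0.00386), *Fam78a* by 1.12 (SE 0.11, limma adjusted p = 0.000381) and *Gng3* by 1.04 (SE 0.21, limma adjusted p = 0.00668) on the log2 scale. *Gng3* passed the filter of 1 FPKM in 2 libraries only through the A1 libraries, where it is the higher, and with no filter it was not called (limma adjusted p = 0.0101). *Meig1* had a log2 fold change of -0.64 (SE 0.23, limma adjusted p = 0.0594) and was not called. Of all 4632 genes tested, 4.19% were called higher and 9.15% were called in either direction, and the groups did not overlap for 64.0% of genes, so the lack of overlap for all 4 genes is close to what the table shows in general. These tests share the A1 libraries with the contrast that picked the genes.

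The calls at the first step differed in how much they rested on single libraries. That of *Fam78a* held whichever library was left out, with adjusted p between 9.61e-05 and 0.00725 over all alternatives (limma). That of *Ap5b1* was lost without Aal-1 (log2 fold change 1.39, limma adjusted p = 0.0214) and without Aal-2 (1.04, limma adjusted p = 0.0538), where the lone Aal library is assumed to vary like the A1 group. That of *Gng3* was lost when any 1 of the 5 libraries was left out, with log2 fold changes from 0.78 without Aal-1 (limma adjusted p = 0.0677) to 1.298 without Aal-2 (0.0199). Without A1-1 or A1-2 its adjusted p was 0.0114 or 0.0113 (limma), and without A1-3 its log2 fold change was 0.90. For *Meig1*, adjusted p ran from 0.00894 to 0.313 over the alternatives (limma), and the log2 fold change stayed between -0.85 and -0.45 when single libraries were left out.

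At the second step, the log2 fold change of A3 against A1 was 2.06 for *Gng3* (SE 0.13), 1.74 for *Ap5b1* (SE 0.24), 1.61 for *Meig1* (SE 0.19) and 1.13 for *Fam78a* (SE 0.12). These values chose the genes and carry no test here. Among 4590 genes they stood in places 2, 4, 6 and 29 from the highest, and 0.479% of the genes were called higher, 1.50% were called in either direction and 18.0% were higher with no overlap between groups. The choice used no numeric threshold. The plot of all genes tested shows that *Gng3*, *Ap5b1* and *Meig1* sat at the sparse upper end of the second step, while *Fam78a* lay nearer the body of the distribution.

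On the log2(FPKM + 1) scale, the share of the net change already reached at A1 was 33.5% for *Gng3*, 41.1% for *Ap5b1* and 49.9% for *Fam78a*. These shares depend on the offset. With a pseudocount of 0.1 FPKM the first step was 1.86 of a net 4.30 for *Gng3*, 1.60 of 3.51 for *Ap5b1* and 1.34 of 2.56 for *Fam78a*, which brings the genes closer together. The difference between the steps was not tested. For *Fam78a* the order of the steps depended on the scale, since with a pseudocount of 0.1 FPKM the log2 fold change was 1.34 at the first step and 1.22 at the second. For *Gng3* and *Ap5b1* the second step stayed the larger, with 1.86 and 2.44 for *Gng3* and 1.60 and 1.91 for *Ap5b1* at that pseudocount. The net log2 fold change from Aal to A3 was 3.099 for *Gng3*, 2.96 for *Ap5b1*, 2.25 for *Fam78a* and 0.97 for *Meig1*.

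**Figure D2:**
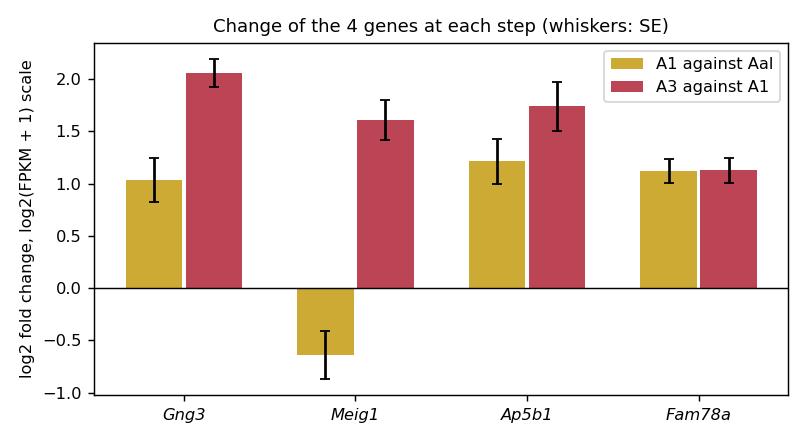
Log2 fold change on the log2(FPKM + 1) scale (vertical axis) of each of the 4 genes for A1 against Aal and for A3 against A1; whiskers are the SE of the limma fit. The bars of *Fam78a* have nearly the same height (1.12 and 1.13), and the first bar of *Meig1* points down (-0.64).

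**Figure D3:**
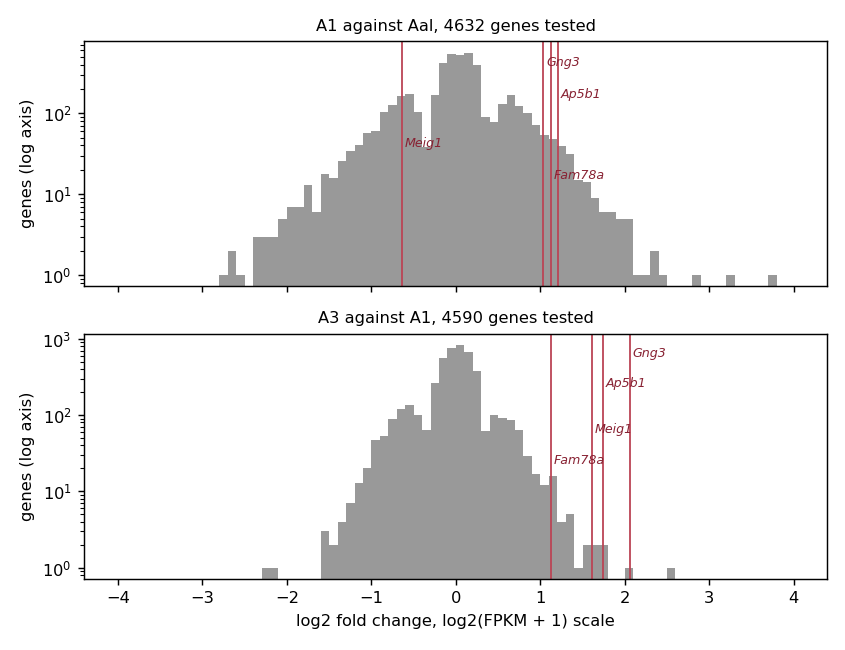
Number of genes (vertical axis, log scale) by log2 fold change on the log2(FPKM + 1) scale (horizontal axis, bins of 0.1) for A1 against Aal (4632 genes) and A3 against A1 (4590 genes), with lines at the 4 genes. At the second step *Gng3* stands at 2.06, where few genes lie.

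Marker sums of Sertoli cells moved with the second step, and their part in the values of the 4 genes was not tested. In A1-3 and A3-1, the libraries with the nearest Sertoli sums, *Gng3* measured 2.93 and 12.8 FPKM, *Meig1* 2.56 and 9.57, *Ap5b1* 4.14 and 13.4 and *Fam78a* 7.58 and 14.3. Since all A3 libraries of these genes lie above all A1 libraries, any pair of libraries would show this order. With both of these libraries left out, an alternative added after seeing the data, the log2 fold change of A3 against A1 was 2.18 for *Gng3*, 1.63 for *Meig1*, 1.87 for *Ap5b1* and 1.27 for *Fam78a*. The Sertoli sums that remain, 51.8 and 48.7 in A1 against 251 and 178 in A3, still differ between the stages. At the first step 2 of the 4 genes were then called, *Ap5b1* and *Fam78a*.

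Of 34 subunit genes listed beside *Gng3*, 9 were in the table and 7 were tested, and 0 were called by limma at either step or from Aal to A3, nor by voom on recovered reads. Calls covered 9.15%, 1.50% and 17.6% of all genes in these comparisons, so a count of 0 of 7 is near the background. At an unadjusted p under 0.05 limma had 2 of the 7 at the first step and 3 at the second, beside 49.7% and 34.0% of all genes. The median log2 fold change of the 7 was -0.05 at the first step and -0.07 at the second, beside medians of 0.03 and 0.01 over all genes tested. The most abundant were *Gnb1*, a beta subunit, at 202, 184 and 188 FPKM on average in Aal, A1 and A3, *Gnb4*, another beta subunit, at 32.5, 21.6 and 19.2, and *Gng13*, a gamma subunit, at 23.3, 23.7 and 29.0. *Gnb5*, the beta subunit that pairs with regulators of G protein signalling, was singled out after its values were seen. It measured 5.30 and 5.09 FPKM in Aal, 10.6, 9.76 and 8.35 in A1 and 9.75, 9.91 and 10.7 in A3, a log2 fold change of 0.76 at the first step (SE 0.12, limma adjusted p = 0.00240), under the fold required for a call.

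Genes that regulate G proteins were represented by 8 of 34 listed genes, among them 5 of the RGS family, whose products shorten the active state of the alpha subunit. At the single steps 0 were called by limma. At an unadjusted p under 0.05 stood 5 of 6 tested at the first step and 3 of 5 at the second, beside 49.7% and 34.0% of all genes, and voom on recovered reads called 3 and 1, beside 15.8% and 4.34%. From Aal to A3 limma called 3 of 6, beside 17.6% of all genes. *Rgs11* rose by 1.52 on the log2 scale (SE 0.17, limma adjusted p = 0.000145), with 2.35 and 2.84 FPKM in Aal, 5.07, 5.68 and 7.58 in A1 and 7.45, 9.75 and 10.9 in A3. *Rgs9* fell over the same interval, from a mean of 3.77 to 0.672 FPKM (limma adjusted p = 0.000153), and *Rgs14* fell from 1.55 to 0.205 (limma adjusted p = 0.000139). *Rgs9* and *Rgs14* passed the filter of 1 FPKM in 2 libraries there only through Aal, where they are the higher. The abundant *Gpsm3*, *Pdcl3* and *Ric8b* were not called by limma, and voom called *Gpsm3* lower in A3 than in Aal (log2 fold change -1.03).

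The adaptor complexes, which select cargo for vesicles, had 10 of 29 other listed genes in the table, all of them tested. At the first step 1 of the 10 was called, beside 9.15% of all genes, so the count is near the background. At the second step 0 were called, beside 1.50%, and from Aal to A3 1 was called, beside 17.6%. *Ap1m2*, the medium subunit of the epithelial form of AP-1, fell from 9.80 FPKM in Aal to 3.73 in A1 (log2 fold change -1.20, SE 0.13, limma adjusted p = 0.000464) and stood at 1.82 in A3. The other adaptor genes with high levels, *Ap2a1*, *Ap1m1* and *Ap2b1*, were not called, and the list had a median log2 fold change of 0.06 at the first step and 0.04 at the second. The zeta subunit of AP-5 itself, *Ap5z1*, measured 13.3 and 12.4 FPKM in Aal, 8.70, 8.28 and 8.14 in A1 and 10.3, 9.73 and 10.5 in A3. *Spg11*, which encodes a protein that binds AP-5, averaged 24.8, 21.2 and 23.2 FPKM in the same order. Both were chosen after their values were seen as the partners of *Ap5b1* in the table, and neither was called. *Ap5b1* passed from below *Ap5z1* in Aal and A1 to above it in every A3 library, on the FPKM scale that allows for gene length. *Ap5b1* was picked for its rise from A1 to A3 and *Ap5z1* was not.

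Genes of the manchette and the sperm tail, the structures in which *Meig1* acts, numbered 18 of 50 listed in the table, and 13 were tested at the first step and 12 at the second. *Iqcg*, a component of the sperm tail, fell from 6.36 FPKM in Aal to 2.00 in A1 (log2 fold change -1.31, SE 0.16, limma adjusted p = 0.000814). *Ccdc42*, needed to form the tail, fell from 2.05 FPKM in A1 to 0.207 in A3 (log2 fold change -1.30, SE 0.22, limma adjusted p = 0.00698). It passed the filter of 1 FPKM in 2 libraries only through A1, where it is the higher. By limma 0 were called higher and 1 lower at each step, beside 9.15% and 1.50% of all genes called in either direction. At an unadjusted p under 0.05 stood 6 genes at each step, of which 2 and 4 were higher, beside 49.7% and 34.0% of all genes. Voom on recovered reads called 0 higher and 4 lower at the first step (*Iqcg*, *Rsph1*, *Rsph9* and *Spag16*), beside 15.8% of all genes. At the second step voom called 0 higher and 1 lower, beside 4.34%. *Spag16* passed the filter of 1 FPKM in 2 libraries only through Aal. The most abundant, *Kif3a*, *Ift20* and *Tekt2*, were not called. The median log2 fold change of the list was -0.14 at the first step and 0.10 at the second, beside 0.03 and 0.01 over all genes tested. At the second step 10 of the 12 genes had a value above 0.

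*Rsph1* and *Rsph9*, which encode parts of the radial spokes of the tail, were singled out after their values were seen, as list genes with a lower mean in A1 than in both other stages. Most of the list shared these signs, with 4 of 13 genes above 0 at the first step and 10 of 12 at the second, though mostly by small amounts. The medians over all genes tested were just above 0, at 0.03 and 0.01. Whether the signs of the list differ from those of all genes was not tested. *Rsph1* measured 13.9 and 17.0 FPKM in Aal, 7.93, 6.48 and 8.37 in A1 and 11.8, 13.4 and 16.3 in A3, and its log2 fold changes of -0.94 and 0.78 had limma adjusted p of 0.00161 and 0.00789 without reaching the fold for a call. *Rsph9* measured 9.80 and 12.3 FPKM in Aal, 5.96, 5.13 and 5.11 in A1 and 5.66, 8.79 and 9.96 in A3. Unlike *Meig1*, neither gene stood higher in A3 than in Aal on average. The spermatid marker list had a single gene of 13 in the table, *Ldhc*, which encodes the lactate dehydrogenase of spermatocytes and sperm. It measured 4.43 and 4.77 FPKM in Aal, 1.54, 1.34 and 1.50 in A1 and 3.14, 1.84 and 3.42 in A3. *Meig1*, which was picked for its rise from A1 to A3, stood above its Aal level by A3, while *Ldhc* did not regain its own in any library. No part of other cell types in these levels was tested.

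**Figure D4:**
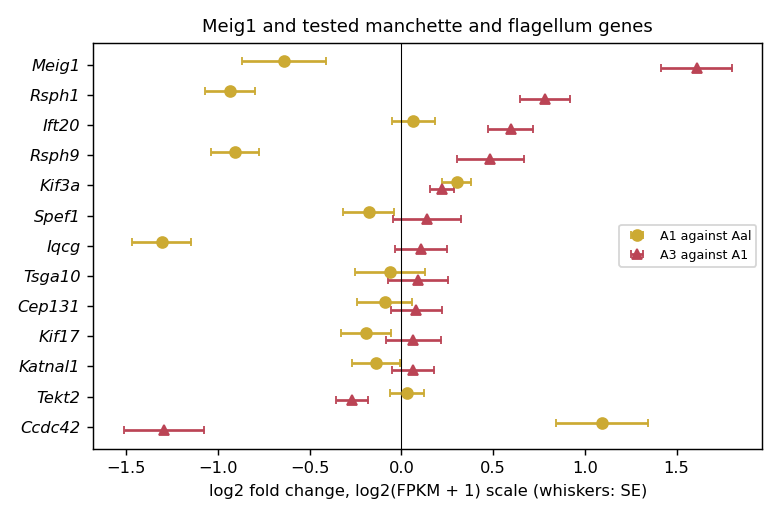
Log2 fold change on the log2(FPKM + 1) scale (horizontal axis, whiskers SE) of *Meig1* and of the 12 manchette and sperm tail genes tested at both steps, for A1 against Aal (circles) and A3 against A1 (triangles). Of the 12 genes, 10 have a triangle right of 0, most of them close to it. The triangle of *Meig1* lies farthest right, but *Meig1* was picked for this value and the 12 genes were not.

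The 4 genes lie on mouse chromosomes 2 and 19, in mm9 with the GENCODE M1 annotation. *Gng3* (ENSMUSG00000071658.4) spans chr19:8911419-8913736 on the minus strand, and 23.4% of its exon bases are shared with *Bscl2* on the other strand. *Fam78a* (ENSMUSG00000050592.8) spans chr2:31905575-31940377 on the minus strand, and 19.6% of its exon bases are shared with *Nup214* on the other strand or the transcript *Gm16534*. This annotation gives *Fam78a* 5973 exon bases, whereas its FPKM was scaled by 4011, so the share among the bases counted may differ. For *Meig1* the lengths are 1102 and 706, and for *Gng3* both are 1699. *Ap5b1*, annotated there as *Gm962* (ENSMUSG00000049562.5), spans chr19:5568074-5571261 on the plus strand, and *Meig1* (ENSMUSG00000026650.9) spans chr2:3326315-3339920 on the minus strand. Neither overlaps another annotated gene. The overlapping genes were not analysed here, and no source used here says whether counting took strand into account, so a part of the reads of *Gng3* and *Fam78a* could belong to them.

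Within 100 kb lay 15 other genes of the table, 5 near *Gng3*, 2 near *Meig1*, 6 near *Ap5b1* and 2 near *Fam78a*, and 0 of the 15 were called in A3 against A1 by limma or by voom, where 1.50% and 4.34% of all genes were called. At an unadjusted p under 0.05 stood 5 of the 15, all higher, beside 34.0% of all genes in either direction. Their median log2 fold change there was 0.12. At the first step 4 of the 15 were called, all higher in A1 than in Aal, beside 4.19% of all genes called higher. *Eml3*, a microtubule-associated protein near *Gng3*, rose from 3.65 to 10.8 FPKM and stayed at 10.8 in A3. *Rom1*, a membrane protein of photoreceptors next to it, rose from 0.974 to 3.305 FPKM and averaged 2.72 in A3. *Rnaseh2c*, a subunit of RNase H2 near *Ap5b1*, rose from 7.91 to 19.6 FPKM and averaged 22.0 in A3. *Aif1l*, an actin-binding protein near *Fam78a*, rose from 0.216 to 1.65 FPKM and averaged 2.56 in A3. On the log2 scale the rises were 1.34, 1.12, 1.18 and 1.11 in that order (limma adjusted p = 0.000287, 0.00125, 0.00577 and 0.00367). *Aif1l* passed the filter of 1 FPKM in 2 libraries only through A1, where it is the higher, as did *Rom1* apart from Aal-1 at 1.14 FPKM. *Stx5a* and *Prrc2b* had lower means in A1 than in Aal, with log2 fold changes of -0.77 and -0.68 (limma adjusted p = 0.000235 and 0.000839). Both missed a call only by the fold required. *Suv39h2*, a histone methyltransferase near *Meig1*, averaged 21.0, 26.1 and 30.7 FPKM.

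**Figure D5:**
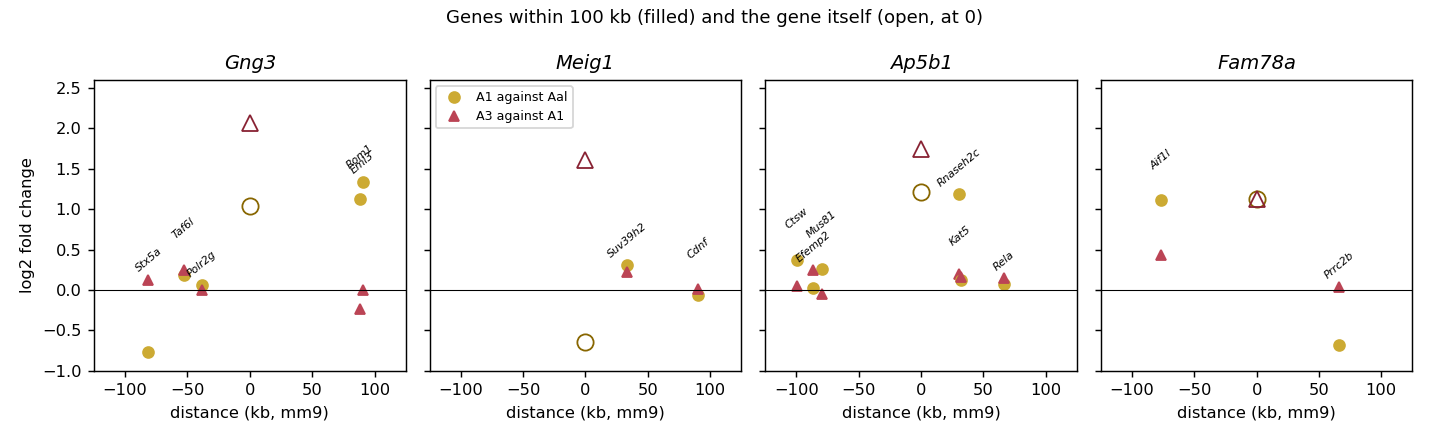
Log2 fold change on the log2(FPKM + 1) scale (vertical axis) of the genes within 100 kb of each of the 4 genes (filled symbols) against their distance in mm9 (horizontal axis, kb), for A1 against Aal (circles) and A3 against A1 (triangles); open symbols at 0 are the gene itself. None of the 15 neighbours reaches the triangle of its member, but the members were picked for a high triangle value and the neighbours were not. Circles near or above 1 belong to *Eml3*, *Rom1*, *Rnaseh2c* and *Aif1l*.

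The profiles of *Gng3*, *Ap5b1* and *Fam78a* over the 8 libraries were alike, and that of *Meig1* stood apart. Pearson's r of log2(FPKM + 1) was 0.98 between *Ap5b1* and *Fam78a*, 0.96 between *Gng3* and *Fam78a* and 0.94 between *Gng3* and *Ap5b1*, against 0.71, 0.67 and 0.60 between *Meig1* and *Gng3*, *Ap5b1* and *Fam78a*. The 8 points share their libraries and fall into 3 stages, so these values are a description and the genes had been chosen for a shared rise. Among 1606 genes with enough range, the profiles most like *Gng3* were those of *Shc4* (r = 0.99), a signalling adaptor, *Fzd9* (0.98), a Wnt receptor, and *Rab34* (0.98), a small GTPase. *Ccnd1*, the D-type cyclin that drives entry into S phase, and *Tbkbp1*, which binds the kinase TBK1, were both among the 3 most like *Ap5b1* and among the 3 most like *Fam78a* (r = 0.99 in each case). The third was *9330133O14Rik* for *Ap5b1* (0.99) and *Faap24* (0.99), a factor of DNA crosslink repair, for *Fam78a*.

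*Ccnd1* measured 22.7 and 20.1 FPKM in Aal, 36.4, 39.3 and 36.7 in A1, and 64.7, 81.7 and 87.1 in A3. As with *Fam78a*, its A3-1 library was the lowest of the A3 group. The genes most like *Meig1* were *Zfp316* (r = 0.94), *C330013E15Rik* (0.93) and *Slc39a3* (0.91), a zinc transporter. *Slc39a3* measured 6.04 and 6.58 FPKM in Aal, 4.60, 4.62 and 3.62 in A1, and 6.74, 9.67 and 10.1 in A3, lower at A1 like *Meig1*. The mean of the 4 standardised profiles was most like *Flrt1*, *Gm1141*, *Otop1*, *9330133O14Rik* and *Ccnd1* (r = 0.98 in each case).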

How the data were processed

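RNA from 2 Aal, 3 A1 and 3 A3 preparations of sorted germ cells was sequenced from stranded mRNA libraries, and stages were taken from the sample titles. The authors trimmed reads with cutadapt 1.9, aligned them to mm9 with STAR 2.5.2b, assigned them to genes with featureCounts and deposited FPKM values with 1 column per library. The annotation, the strand setting and the step to FPKM are not given in the sources used here.

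Each value was a whole number of reads over a gene length and a library total, so reads were recovered (100% of values rebuilt within 0.001%). Intervals from such reads cover counting error only. Each pair of stages was compared on log2(FPKM + 1) by limma 3.58.1 (R 4.3.3; linear model, moderated with a mean-variance trend, two-sided), for genes that reached an FPKM of 1 in 2 or more libraries of the pair, with Benjamini-Hochberg adjustment over all genes tested. The script was tested on simulated data. The table is a part of each transcriptome, and its fold changes are unevenly spread: in A3 against A1, 126 genes had an absolute log2 fold change from 0.3 to 0.4 and 228 from 0.5 to 0.6. Shares of all genes may therefore differ in the full transcriptome.

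The 4 genes and the lists were chosen with earlier results of these data known. Genes named are the 4, neighbours within 100 kb, called list genes with the 3 most abundant others of each list, the genes with the highest Pearson correlation (3 per gene, 5 for the mean profile) and markers. *Fam78b*, the only gene of the FAM78 list, was not analysed here. Replicates of a group differed by far more than sampling noise (chi-square per gene 5.69 to 21.7), and no libraries were merged. Alternatives were another pseudocount, other filters, median-ratio scaling, 1 fit on 8 libraries, no trend, an adjusted p of 0.05, a replicate block, leaving out each library, limma voom on recovered reads and Spearman in place of Pearson correlation. Promoter sequences come from RefSeq (GRCm38.p6).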

Additional observations from a re-analysis of the deposited data

How the results depend on the processing

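No value changed direction. Of the alternative values 47 of 57 stayed on their side of the threshold in A1 against Aal. In A3 against A1, 61 of 64 values of the 4 genes moved by less than the replicate spread. In A3 against Aal 54 of 60 did. Many of these could not move, since other filters, the single fit, no trend and another p threshold leave a log2 fold change unchanged. In A3 against A1 the replicate block leaves it unchanged too. The call of *Gng3* in A1 against Aal was lost with no filter on low values (log2 fold change 1.04, limma adjusted p = 0.0101), with the replicate block (0.90) and without A1-3 and A3-1 (0.90), and when single libraries were left out (0.78 to 1.298). *Ap5b1* ran from 1.02 to 1.39 there. The number of the 4 genes called, 3, was 1 at an FPKM minimum of 5, where only *Fam78a* was tested, and 1 to 2 with single libraries left out. With a pseudocount of 0.1 FPKM and with voom, *Gng3* had log2 fold changes of 2.44 and 2.51 in A3 against A1 and of 4.30 and 4.51 in A3 against Aal, *Ap5b1* 3.51 and 3.62 and *Fam78a* 2.56 and 2.61 in A3 against Aal, and *Meig1* 1.93 in A3 against A1 with voom. A smaller offset shrinks low values less, by construction.

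Genes called in A1 against Aal, 424, numbered 670 with the pseudocount of 0.1, 731 with voom and 179 (without Aal-2) to 475 with single libraries left out. In A3 against A1, 69 became 152, 199 and 26 (without A3-2) to 111 (without A1-3), with 32 without A1-2 or without A3-3 and 107 without A3-1, and 158 without A1-3 and A3-1. In A3 against Aal, 823 became 538 at an FPKM minimum of 5. The replicate block gave 39 genes in A3 against A1. Whether replicate numbers pair the samples was not settled. The A1 and A3 libraries with one number deviated from their group means with correlations of -0.11, 0.02 and -0.32. Deviations within so few libraries depend on one another, so these values cannot decide it. By Spearman correlation 2 of the 3 genes most like *Gng3* and 2 of those most like *Meig1* were again among the nearest 3, and 0 for *Ap5b1* and *Fam78a*, and 0 of the 5 most like the mean profile were among its nearest 5. Low reads limit *Gng3* in Aal and *Meig1* in A1. Causes of the other shifts were not tested.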
